A study of Mus musculus with 8 samples.

Results

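Acid-sensing ion channels (ASICs) are sodium channels of sensory and central neurons that open when the fluid around the cell turns acidic. The rows of the deposited count table whose gene name is Asic1, Asic2, Asic3 or Asic4 were taken, 4 of 54532 rows, and were chosen because Asic3 was among the strongest falls between the groups. The levels of all 4 in the 2 groups are therefore given as a description, and where a count of members past a threshold is printed beside that of all genes, nothing is read from it. The dorsal root ganglia at L3-L5 hold the cell bodies of sensory neurons of the hindlimb, and their poly(A) RNA was measured in 2 groups of C57BL/6 mice. The MIA_Acu group (4 libraries) had osteoarthritis induced by monosodium iodoacetate in the joint and then manual acupuncture at ST36 each day for 7 days. The MIA group (4 libraries) had the same joint injection and no further treatment. Both groups thus carry the injected joint, and neither uninjured ganglia nor sham needling was analysed here. Each library holds whole ganglia of several levels, and the labels do not tie a library to an animal of its own, so spreads and p-values measure differences between libraries.

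ASIC subunits assemble in threes, alone or mixed, and belong to the family of the epithelial sodium channel. ASIC3 opens with small falls in pH and is known above all from sensory neurons that supply muscle and joint, where acid builds up in inflamed tissue. ASIC1 forms acid-gated channels of central and sensory neurons, ASIC2 joins ASIC1 and ASIC3 and changes their response to acid, and ASIC4 forms no acid-gated channel by itself.

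Library totals were 32892804 to 40627041 counts. The columns named MIA 4 and MIA_Acu 3 carry a number that no sample title of their group has. Among the titles, number 4 occurs only in MIA_Acu and number 3 only in MIA. Each of these columns thus bears the number of a title that only the other group has. Both were analysed under the group that the column name states. It is not known if an exchange took place, and several values below are also given with the groups of these columns exchanged. All 18 pan-neuronal marker genes were detected; their CPM (counts scaled to the library total, with TMM factors) summed to 8174 to 9771 in the MIA_Acu libraries and 9408 to 12355 in the MIA libraries. Myelinating Schwann markers (14 genes) summed to 22066 to 41726 CPM in MIA_Acu and 7662 to 26555 CPM in MIA. Spinal cord markers (16 genes) summed to 219 to 682 CPM in MIA_Acu and 203 to 327 CPM in MIA, skeletal muscle markers (14 genes) to 556 to 7274 CPM in MIA_Acu and 105 to 4828 CPM in MIA, and bone and cartilage markers (10 genes) to 38.1 to 674 CPM in MIA_Acu and 37.4 to 73.1 CPM in MIA. All 10 fibroblast, 10 endothelial and 12 macrophage markers were higher in MIA_Acu, with median log2 fold changes of 0.92, 0.53 and 0.56. No gene of these lists was at 0 in all 8 libraries. The part of these tissues in the values below was not tested beyond the comparisons given. In whole ganglia, fewer neurons, less RNA per neuron and more RNA from other cells cannot be told apart, since CPM are shares of a library.

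The promoters of the 3 members that were lower in MIA_Acu are shown to allow their start regions to be compared. Each window runs from 250 bases before to 50 bases after a RefSeq transcription start on build GRCm38.p6, another build than that of the counts. Capitals mark matches to any of 7 motifs searched on both strands.
Asic3, chr5:24413201-24413500, plus strand: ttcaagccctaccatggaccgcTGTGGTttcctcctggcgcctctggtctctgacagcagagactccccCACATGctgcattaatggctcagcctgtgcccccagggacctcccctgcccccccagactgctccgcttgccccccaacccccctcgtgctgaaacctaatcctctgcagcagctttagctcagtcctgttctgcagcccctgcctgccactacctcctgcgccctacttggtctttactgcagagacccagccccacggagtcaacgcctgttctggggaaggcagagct
Asic1, chr15:99691974-99692273, plus strand: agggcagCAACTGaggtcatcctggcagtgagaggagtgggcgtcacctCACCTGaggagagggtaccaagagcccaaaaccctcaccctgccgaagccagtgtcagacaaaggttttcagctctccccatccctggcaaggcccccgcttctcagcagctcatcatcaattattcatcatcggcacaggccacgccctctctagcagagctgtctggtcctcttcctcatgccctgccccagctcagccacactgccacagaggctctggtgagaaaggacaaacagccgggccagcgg
Asic2, chr11:81968347-81968646, minus strand: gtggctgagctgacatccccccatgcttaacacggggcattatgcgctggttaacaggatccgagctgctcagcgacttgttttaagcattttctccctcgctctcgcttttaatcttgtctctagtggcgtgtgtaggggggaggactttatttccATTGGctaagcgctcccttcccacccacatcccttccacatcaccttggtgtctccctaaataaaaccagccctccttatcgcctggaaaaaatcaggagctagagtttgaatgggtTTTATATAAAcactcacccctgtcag

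The motifs were the TATA box (TATAAA), the CCAAT box (CCAAT), the RUNX core (TGTGGT), the cyclic AMP response element (TGACGTCA), the AP-1 site (TGANTCA), the E-box (CANNTG) and the GC box (GGGCGG). The Asic3 window held 1 RUNX core, a match found in 16.8% of 32851 promoter windows of this length, and 1 E-box, found in 72.3%. The Asic1 window held 2 E-boxes. The Asic2 window shown held a CCAAT box read on the reverse strand (37.4% of windows). The same window held 2 overlapping matches to the TATA box, 1 on each strand (13.6%). Both matches lie after the transcription start, at positions 25 and 29. A second Asic2 start, chr11:81152854-81153153, held none of the 7 motifs. The 3 windows shown share no motif that all of them hold. G and C made up 62.0% of the Asic3 window, 59.7% of that of Asic1 and 49.7% of the Asic2 window shown.

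Asic3, the acid sensor of muscle and joint afferents, differed most between the groups. Asic3 (ENSMUSG00000038276) was at 45.0, 48.0, 42.7 and 49.0 CPM in MIA_Acu libraries 1, 2, 3 and 5, and at 62.6, 78.3, 62.6 and 75.3 CPM in MIA libraries 1, 2, 4 and 5. Every MIA_Acu library lay below every MIA library, with a gap between 49.0 and 62.6 CPM. These values rest on 1569 to 1791 counts in MIA_Acu libraries and 2056 to 3063 counts in MIA libraries. The means were 46.2 ± 2.88 CPM in MIA_Acu and 69.7 ± 8.30 CPM in MIA (SD, n = 4 each), and the fitted log2 fold change was -0.59 (SE 0.09), a level 0.663 times that of MIA. The spread between libraries was smaller in MIA_Acu, at 6.24% of the mean, than in MIA, at 11.9%; this difference in spread was not tested. By size its difference was in place 60 from the lowest among the 14359 tested genes with a mean log2 CPM of 1 or more, which is the kind of value the family was chosen on.

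Asic1, the subunit that opens with acid in central and sensory neurons, was lower by less and the groups overlapped. Asic1 (ENSMUSG00000023017) was at 52.7, 55.4, 57.7 and 60.1 CPM in MIA_Acu libraries 1, 2, 3 and 5, and at 56.1, 74.3, 62.8 and 73.0 CPM in MIA libraries 1, 2, 4 and 5. MIA 1 lay among the MIA_Acu libraries, and the other 3 MIA libraries lay above all of them. The means were 56.5 ± 3.17 CPM in MIA_Acu and 66.5 ± 8.63 CPM in MIA (SD, n = 4 each), with a log2 fold change of -0.24 (SE 0.09) that turned to 0.11 (SE 0.12) when libraries were scaled to equal pan-neuronal counts.

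Asic2, the subunit that modifies mixed channels, was lower in 3 of the 4 MIA_Acu libraries. Asic2 (ENSMUSG00000020704) was at 65.0, 44.6, 45.4 and 46.2 CPM in MIA_Acu libraries 1, 2, 3 and 5, and at 66.9, 74.5, 50.9 and 63.2 CPM in MIA libraries 1, 2, 4 and 5. MIA_Acu 1 lay within the MIA range, while the other 3 MIA_Acu libraries lay between 44.6 and 46.2 CPM, below each MIA library. The means were 50.3 ± 9.80 CPM in MIA_Acu and 63.9 ± 9.83 CPM in MIA (SD, n = 4 each), with a log2 fold change of -0.34 (SE 0.15). Among the MIA_Acu libraries, MIA_Acu 1 also had the highest scores of the pan-neuronal list (-0.026, against -0.24 to -0.17 in the others) and of the non-peptidergic nociceptor list (0.20, against -0.35 to -0.17), a score being the mean log2 CPM of a list's genes centred on the 8 libraries. Its score of the cold and C low-threshold list was the highest too (0.15, against -0.30 to -0.16), while its scores of the peptidergic list (-0.035) and the large-diameter list (-0.11) were below those of MIA_Acu 3 (0.10 and 0.025). The part of these in the Asic2 value was not tested.

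Asic4, which forms no acid-gated channel alone, was close to the limit of detection. Its counts (ENSMUSG00000033007) were 12, 6, 6 and 27 in MIA_Acu libraries 1, 2, 3 and 5, and 9, 8, 13 and 8 in MIA libraries 1, 2, 4 and 5. Only MIA_Acu 5 lay above the MIA range. The means were 0.353 ± 0.271 CPM in MIA_Acu and 0.256 ± 0.0674 CPM in MIA (SD, n = 4 each), and the log2 fold change of 0.47 (SE 0.54) is smaller than its standard error. Spinal cord scores were 2.37 in MIA_Acu 5, 2.04 in MIA_Acu 2, -1.33 in MIA_Acu 1 and -0.92 in MIA_Acu 3, and -1.60 to 0.58 in the MIA libraries; their part in the Asic4 counts was not tested. Without both of these libraries the log2 fold change was -0.022 (SE 0.58).

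**Figure D1:**
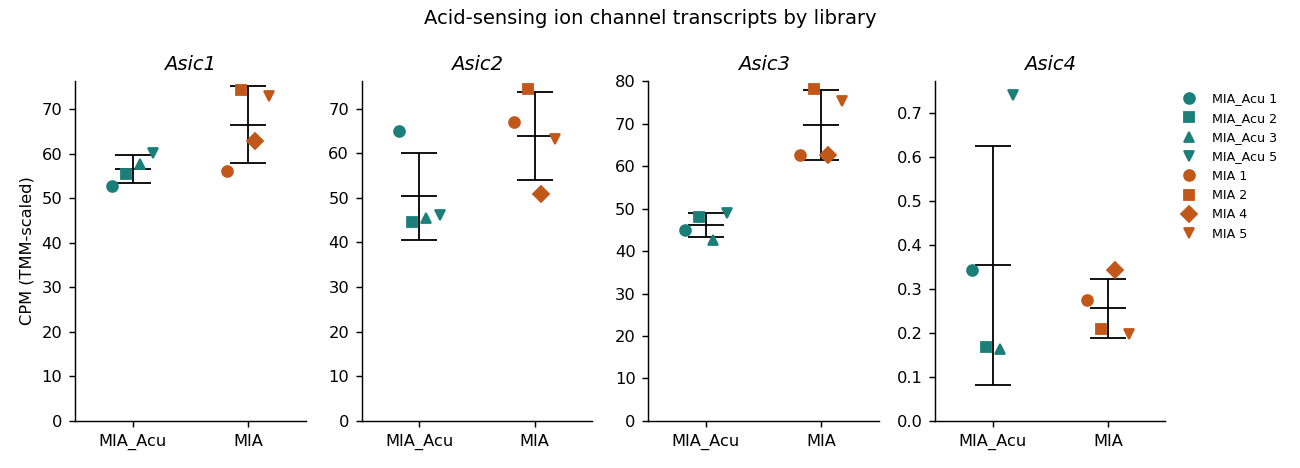
CPM of Asic1, Asic2, Asic3 and Asic4 (vertical axes from 0, a scale of its own for each gene) in the MIA_Acu and MIA groups; each point is a library and the bars are the mean and SD of 4. Asic3 is the gene whose groups do not overlap, with MIA_Acu up to 49.0 and MIA from 62.6 CPM, and the Asic2 value of 65.0 CPM in MIA_Acu 1 stands apart from its group.

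Of the 4 members, 1 (Asic3) had all MIA_Acu libraries below all MIA libraries; the same held for 5.91% of the 18971 genes tested, and the opposite order for 4.95%. With a threshold of adjusted p under 0.05 over all genes (edgeR quasi-likelihood test, Benjamini-Hochberg adjustment), 0 of the 4 members and 0% of all genes passed in 8 libraries, while 4137 genes had an unadjusted p under 0.05. On the same libraries limma voom called 0 genes and DESeq2 1753. In the 6 libraries whose number matches a title of their group, edgeR called 1 member, Asic3, and 10.4% of 18941 genes. The Asic3 log2 fold change was -0.61 (SE 0.10) there. Since the members were chosen on this contrast, nothing is read from these counts. If the groups of MIA 4 and MIA_Acu 3 were exchanged, the Asic3 log2 fold change would be -0.34 (SE 0.18), since these libraries were at 62.6 and 42.7 CPM.

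The ASIC total of each library, summed over the members, was 146 to 163 CPM in MIA_Acu and 177 to 227 CPM in MIA. Asic3 took 30.2% ± 2.15 of this total in MIA_Acu and 34.8% ± 0.894 in MIA (SD, n = 4 each), and its share lay below each MIA value in all 4 MIA_Acu libraries. The share of Asic1 was 36.9% ± 3.20 in MIA_Acu and 33.2% ± 2.34 in MIA, and that of Asic2 was 32.7% ± 4.84 in MIA_Acu and 31.9% ± 3.22 in MIA. Both overlapped between the groups. These shares are of CPM, with no regard to transcript length.

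To compare members with each other, counts were divided by transcript length and scaled to the same total in each library (TPM). With the median length of a gene's annotated transcripts, Asic1 was at 49.7 ± 3.77 TPM in MIA_Acu and 59.6 ± 7.84 TPM in MIA, and Asic3 at 35.0 ± 2.31 TPM in MIA_Acu and 53.9 ± 6.49 TPM in MIA (SD, n = 4 each). Asic2 was at 19.7 ± 3.27 TPM in MIA_Acu and 25.6 ± 3.96 TPM in MIA, and Asic4 at 0.166 ± 0.127 TPM in MIA_Acu and 0.123 ± 0.0325 TPM in MIA. On this scale each neighbouring pair kept its order in 8 of 8 libraries: the level of Asic1 exceeded that of Asic3 by 0.33 ± 0.21 on the log2 scale (SD over 8 libraries), Asic3 that of Asic2 by 0.96 ± 0.26, and Asic2 that of Asic4 by 7.45 ± 0.81. The exact sign-flip permutation test over libraries (two-sided) gave an adjusted p of 0.00781 for each of the 3 pairs, the smallest that 8 libraries allow. The order tested was taken from these same levels. Division by length shifts a pair's difference by the same amount in every library. For Asic1 with Asic3 and Asic3 with Asic2, this p therefore depends largely on the lengths used (median 1593 bases for Asic3, 3068 for Asic2). The place of Asic1 depends on the length used: with the longest transcript (4114 bases for Asic1 against a median of 1373.5, and 2211 for Asic3 against 1593) Asic3 was above Asic1 in 8 of 8 libraries, with a log2 difference of Asic1 minus Asic3 of -0.78, and Asic1 was below Asic2 on average. In CPM, with no length, Asic1 and Asic3 differed by 0.11 ± 0.21 (exact permutation test, adjusted p = 0.270) and Asic3 and Asic2 by 0.012 ± 0.26 (adjusted p = 0.906), neither past the threshold. Asic4 was the lowest on each scale.

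The members were also set against the 18 pan-neuronal genes, since these were at lower levels in the MIA_Acu ganglia too. All 18 of these genes were lower in MIA_Acu, by log2 fold changes of -0.48 to -0.17 (median -0.34), and 15 of them had an unadjusted p under 0.05; of all genes tested 10.6% were lower with such a p. None of the 18 had a log2 fold change below the -0.59 of Asic3, while 8 of them were below that of Asic2 and 17 below that of Asic1. Since Asic3 was chosen as a strong fall, nothing is read from its place below the 18. Rbfox3, which encodes the neuronal nuclear protein NeuN, was at 131 ± 13.0 CPM in MIA_Acu and 170 ± 18.7 CPM in MIA, and Avil, which encodes the sensory neuron protein advillin, at 493 ± 58.6 CPM in MIA_Acu and 689 ± 76.5 CPM in MIA (SD, n = 4 each), neither past the threshold in 8 libraries.

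After the mean log2 CPM of the pan-neuronal list was subtracted, Asic3 was at -0.30, -0.0034, -0.24 and 0.035 in MIA_Acu libraries 1, 2, 3 and 5, and at -0.074, 0.14, 0.19 and 0.26 in MIA libraries 1, 2, 4 and 5 (log2, centred on the 8 libraries). The groups overlapped on this scale, because MIA 1 lay below MIA_Acu 2 and MIA_Acu 5. The difference of the means was -0.26, against -0.59 before; for Asic2 it was -0.016 and for Asic1 0.10. On this scale the median of all genes tested was 0.34 above 0. If the groups of MIA 4 and MIA_Acu 3 were exchanged, the Asic3 difference relative to the list would be -0.042.

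**Figure D2:**
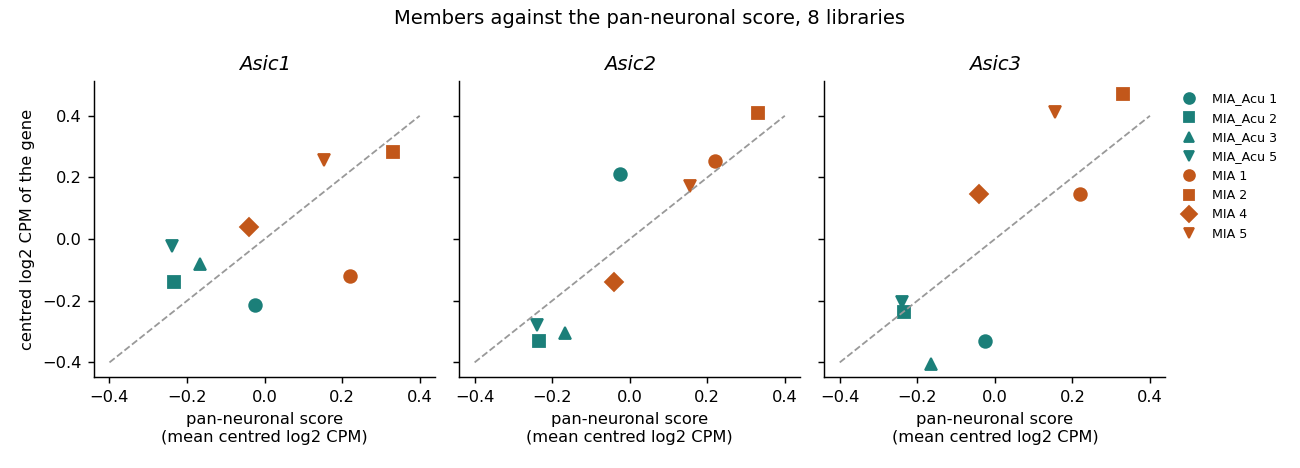
Centred log2 CPM of Asic1, Asic2 and Asic3 (vertical) against the pan-neuronal score (horizontal, mean centred log2 CPM of 18 genes), 1 point a library; the dashed line marks equal change of both. For Asic3, MIA libraries 2, 4 and 5 and MIA_Acu 5 lie above the line and MIA 1 and MIA_Acu libraries 1, 2 and 3 below it, MIA_Acu 2 at -0.0034 close to it, while for Asic2 MIA_Acu 1 is the point farthest from the line.

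The lists of neuron types gave different references. Set against 14 genes of large-diameter and proprioceptive neurons, Asic3 differed by -0.48 and the groups did not overlap, with MIA_Acu libraries at -0.43 to -0.020 and MIA libraries at 0.074 to 0.50. Asic3 was chosen on its fall, and the share of all genes without overlap on this scale was not counted. The lowest value was that of MIA_Acu 3, which also had the highest sum of bone and cartilage markers (674 CPM). The part of that tissue in this reference was not tested. Against 11 genes of peptidergic nociceptors the difference was -0.34, against 14 genes of non-peptidergic nociceptors -0.33 and against 8 genes of cold and C low-threshold neurons -0.28, and the groups overlapped on each of these 3 scales. Asic2 differed by -0.24 against the large-diameter list and by -0.10 to -0.044 against the other 3. The spread of Asic2 was smallest against the non-peptidergic list, where its 8 libraries lay between -0.16 and 0.12. It was nearly the same against the cold and C low-threshold list, between -0.17 and 0.12. Asic1 differed by -0.12 against the large-diameter list and by 0.017 to 0.076 against the other 3. The large-diameter list holds Pvalb, a proprioceptor gene that fast muscle also expresses, at 286 ± 151 CPM in MIA_Acu and 195 ± 133 CPM in MIA (SD, n = 4 each); its part in that reference was not tested.

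**Figure D3:**
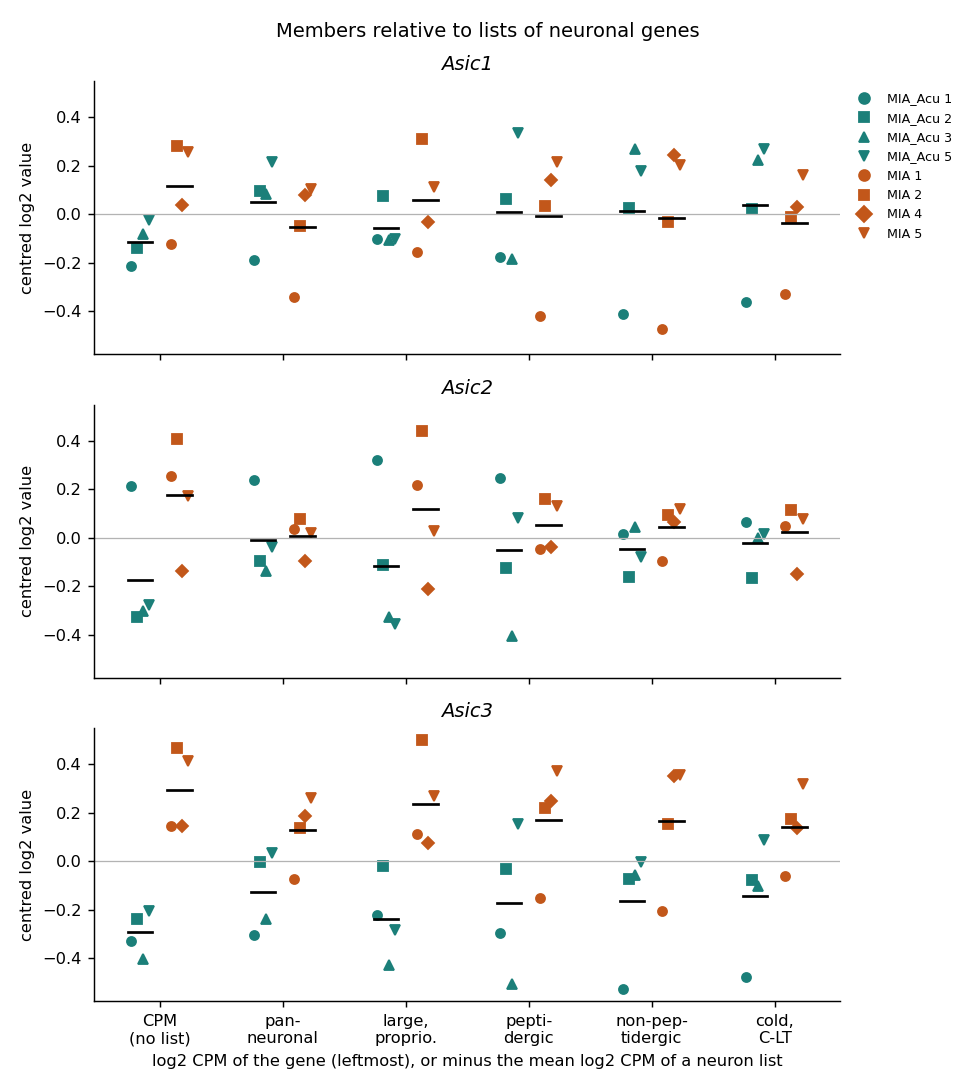
Centred log2 values of Asic1, Asic2 and Asic3 by library: log2 CPM (leftmost) and log2 CPM minus the mean log2 CPM of each of 5 lists of neuronal genes. Points are libraries, MIA_Acu left and MIA right in each pair, and black lines are group means; for Asic3 the means differ by -0.26 against the pan-neuronal list and by -0.48 against the large-diameter list, and for Asic1 the sign depends on the list (0.10 and -0.12).

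The genes whose levels followed each member most closely over the libraries were listed. Asic1 and Asic2 were nearer to Asic3 than the median gene was. The nearest of so many genes lie closer than named genes by the way they are picked. The distance between 2 genes was taken as the root mean square difference of their centred log2 CPM over the 8 libraries, among 14218 genes with a mean log2 CPM of 1 or more. Nearest to Asic3 were Inpp5j, a phosphoinositide phosphatase (distance 0.0492), Sarm1, an enzyme that drives the breakdown of injured axons (0.0788), Chgb, the dense-core vesicle protein chromogranin B (0.0794), Phyhipl (0.0817) and Ahnak2 (0.0897), with log2 fold changes between -0.51 and -0.47. Asic1 stood in place 659 from Asic3 (0.195) and Asic2 in place 1937 (0.243), and the median gene was at 0.353. Nearest to Asic1 were Tubgcp6, of the gamma-tubulin ring complex, the receptor phosphatase gene Ptprz1, the kinase gene Pak1, Clec2l and Clrn1, at 0.0461 to 0.0621. Nearest to Asic2 were Plcb3, a phospholipase C of receptor signalling, Tusc5, Slc7a7, an amino acid transporter, Phactr1 and Prrxl1, a transcription factor of nociceptors, at 0.0368 to 0.0482. Nearest to Asic4 were Nnat, Fgf14, Zkscan16, Dnah9 and Lrrc7, at 0.271 to 0.331, on a profile that rests on 6 to 27 Asic4 counts a library. The distances share the 8 libraries and their depth, and they include the difference between the groups, on which Asic3 was chosen.

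Among genes of acid sensing and acid handling, 80 distinct genes in 7 lists, 75 were tested. In 8 libraries 0 passed over all genes, 44 were lower (58.7%, beside 47.1% of all genes tested) and 31 higher in MIA_Acu, and the median log2 fold change was -0.057, beside 0.018 over all genes tested. In the 6 libraries 11 of 75 fell (14.7%, beside 4.14% of all genes) and 4 rose (5.33%, beside 6.22%). Here and below, in counts for the 6 libraries, fell and rose mean lower or higher with an adjusted p under 0.05. Among those that fell were Oprm1, Piezo2, Trpv1, Cnr1, Nedd4l, Magi1, Patj, Dlg4, Trpc1 and Prkcb, and those that rose were Slc16a1, Kcnk1, Kcnk5 and Car14. Their adjusted p ranged from 0.0185 to 0.0435 (edgeR, Benjamini-Hochberg). In the same 6 libraries 8 of the 18 pan-neuronal genes fell. Pan-neuronal scaling of the 8 libraries moves the median of all genes to 0.35. Under it 9 of the 75 acid-related genes passed as higher and 0 as lower, beside 3724 and 8 of the 18971 genes tested. The part of the neuronal RNA level in these counts was not tested.

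Of 13 other channels that protons open or block, 6 were lower and 7 higher, with 0 past the threshold in 8 libraries. Trpv1, the capsaicin receptor that acid also opens, was at 106 ± 30.6 CPM in MIA_Acu and 124 ± 22.5 CPM in MIA (SD, n = 4 each), and the groups overlapped. Its log2 fold change was -0.23 in 8 libraries and -0.56 in the 6. The libraries left out of the 6 were at 151 CPM (MIA_Acu 3, the highest of all) and 97.1 CPM (MIA 4, the lowest of MIA). Kcnk3, the leak potassium channel TASK-1 that acid blocks, was at 13.9 ± 4.96 CPM in MIA_Acu and 14.4 ± 2.21 CPM in MIA (SD, n = 4 each), with a log2 fold change of -0.049 (SE 0.22) in 8 libraries and -0.43 in the 6. It too was highest in MIA_Acu 3 (21.3 CPM) and, within MIA, lowest in MIA 4 (11.5 CPM). Kcnk5 and Kcnk1, further leak channels, were higher by 0.45 (SE 0.18) and 0.32 (SE 0.13) on the log2 scale. P2rx3, the ATP-gated channel of nociceptors, was at 157 ± 34.8 CPM in MIA_Acu and 202 ± 23.0 CPM in MIA (SD, n = 4 each), and the groups overlapped.

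The G protein-coupled proton receptors Gpr4, Gpr65 and Gpr132 were low, and their groups overlapped. Gpr4 was at 2.50 ± 0.466 CPM in MIA_Acu and 1.86 ± 0.687 CPM in MIA, Gpr65 at 1.12 ± 0.452 CPM in MIA_Acu and 0.908 ± 0.281 CPM in MIA, and Gpr132 at 0.803 ± 0.420 CPM in MIA_Acu and 0.454 ± 0.318 CPM in MIA (SD, n = 4 each). None of these 3 passed the threshold in 8 or 6 libraries. Of the relatives Scnn1a, Scnn1b, Scnn1g and Asic5, only Scnn1a passed the filter on low counts, at 1.68 ± 0.712 CPM in MIA_Acu and 1.15 ± 0.394 CPM in MIA (SD, n = 4 each).

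Of 16 tested genes of ASIC partners and trafficking proteins, 12 were lower and 4 higher, 0 passed in 8 libraries, and 5 fell in the 6; of all genes tested, 47.1% were lower and 4.14% fell in the 6. The neuronal genes were lower too, with 18 of 18 pan-neuronal genes lower in 8 libraries. In the 6 libraries their median log2 fold change was -0.42, and 8 of them passed the threshold as lower. The scaffold genes Magi1 and Patj and the ubiquitin ligase gene Nedd4l were lower on the log2 scale, with values of -0.33 (SE 0.08) for Magi1, -0.35 (SE 0.10) for Patj and -0.40 (SE 0.10) for Nedd4l. Pick1, whose protein binds the tail of ASIC1 and ASIC2, was at 12.1 ± 1.24 CPM in MIA_Acu and 11.4 ± 0.999 CPM in MIA (SD, n = 4 each), and the groups overlapped. Stoml3, a stomatin-like protein of mechanoreceptors, was at 0.404 ± 0.647 CPM in MIA_Acu and 0.123 ± 0.0637 CPM in MIA, below the filter on low counts, and was not tested.

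Of 13 tested genes whose products modulate ASICs or raise their expression, 11 were lower and 2 higher, 0 passed in 8 libraries, and 3 fell in the 6, beside the same 47.1% and 4.14% of all genes and the same pan-neuronal counts. Oprm1, the mu opioid receptor, was at 9.92 ± 1.41 CPM in MIA_Acu and 15.1 ± 0.869 CPM in MIA (SD, n = 4 each). Htr2a, a serotonin receptor, was at 11.7 ± 1.82 CPM in MIA_Acu and 15.8 ± 2.44 CPM in MIA. The groups did not overlap in Oprm1 and overlapped in Htr2a. Of 22 acid-base transporters and carbonic anhydrases, 11 were lower and 11 higher and 0 passed in 8 libraries. Car14, a membrane carbonic anhydrase, was at 7.11 ± 0.204 CPM in MIA_Acu and 3.82 ± 1.24 CPM in MIA, and Slc16a1, the lactate and proton transporter MCT1, at 97.7 ± 1.40 CPM in MIA_Acu and 80.2 ± 9.69 CPM in MIA (SD, n = 4 each). Slc4a8, a bicarbonate transporter, was at 23.1 ± 4.46 CPM in MIA_Acu and 31.3 ± 2.12 CPM in MIA. The groups did not overlap in these 3 genes, which had the smallest p of their list. Genes picked by a small p, as Oprm1 was too, tend to lack overlap. Of all genes tested, 5.91% had all MIA_Acu libraries below all MIA libraries and 4.95% had the opposite order. Slc16a1 is a transporter that Schwann cells use too, and myelinating Schwann scores were -0.11 to 0.87 in MIA_Acu and -1.55 to 0.26 in MIA; their part in the Slc16a1 and Car14 values was not tested.

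Of 6 touch and stretch channel genes, 4 were lower and 2 higher, with 0 past the threshold in 8 libraries. Piezo2, the touch and proprioception channel, was at 380 ± 22.0 CPM in MIA_Acu and 544 ± 41.4 CPM in MIA (SD, n = 4 each), with no overlap and a log2 fold change of -0.52 (SE 0.08), close in size to that of Asic3. Trpc1 was at 36.9 ± 1.39 CPM in MIA_Acu and 44.5 ± 3.57 CPM in MIA, and Tmem150c at 57.9 ± 6.49 CPM in MIA_Acu and 69.7 ± 6.98 CPM in MIA. The groups did not overlap in Trpc1 either, and they overlapped in Tmem150c. Piezo2, Trpc1 and Tmem150c had the smallest p of their list. All MIA_Acu libraries lay below all MIA libraries in 5.91% of the genes tested. Scn10a, the nociceptor sodium channel, was at 662 ± 97.4 CPM in MIA_Acu and 912 ± 118 CPM in MIA, with a log2 fold change of -0.46 (SE 0.13).

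**Figure D4:**
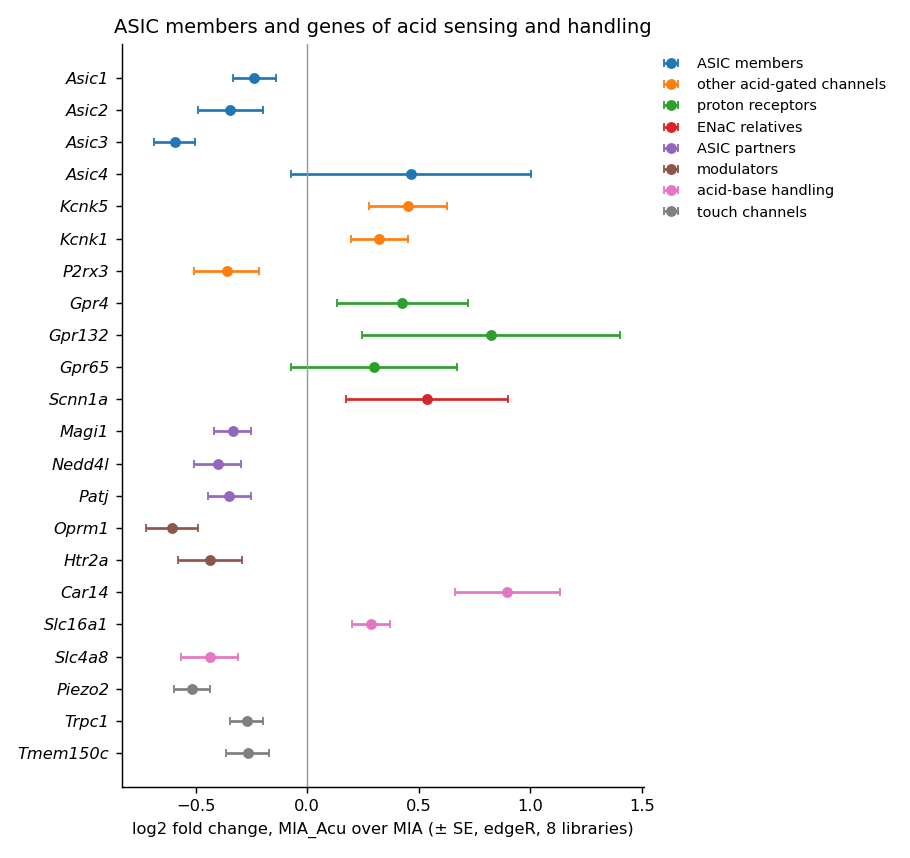
Log2 fold changes, MIA_Acu over MIA, with their standard errors (edgeR, 8 libraries), of the ASIC members and of genes among those with the smallest p in each of 7 lists of acid-related genes. Asic3 (-0.59), Oprm1 (-0.61) and Piezo2 (-0.52) lie lowest and Car14 (0.90) highest; none passed the threshold in 8 libraries, and the Asic1 value of -0.24 turns to 0.11 under pan-neuronal scaling.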

How the data were processed

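The authors deposited a table of raw counts, 1 row for each of 54532 Ensembl genes; 20427 rows are at 0 throughout. Per the submitters' processing notes, FastQC, Trimmomatic and build GRCm39 (mm39) were used. For the aligner, the counter, its strand setting and the annotation, the sources used here give no name. Per the labels' protocols, poly(A) RNA was made into NEBNext Ultra libraries after TRIzol extraction. Columns were given their group from their names. Libraries of a group were not copies: chi-square per degree of freedom was 19.7 or more.

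The whole table was fitted with edgeR 4.0.16 (glmQLFit, glmQLFTest) in R 4.3.3 after filterByExpr (minimum count 10, minimum total 15) and TMM, with a model of group alone and p-values adjusted by Benjamini-Hochberg; the biological coefficient of variation was 22.9%. The test was checked on simulated data. Standard errors come from the F statistic. CPM uses TMM-scaled totals and log2 CPM a prior count of 2. TPM used transcript lengths of GENCODE M21 (GRCm38). Motifs were searched in RefSeq promoters of GRCm38.p6. Asic4 has no promoter entry in the table used.

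The members and gene lists were chosen with earlier results of these data known. Named genes were the members, the 5 nearest profiles to each, the 3 smallest p-values of each acid-related list and 9 fixed names; the genes of these lists called in the 6 libraries are added, a choice made after their values were seen. Alternatives were DESeq2 1.42.0 (its size factors and its test), limma 3.58.1 voom, other filters, other references and the omission of libraries. Same-numbered libraries were not treated as pairs. With no counter named, reads of overlapping or antisense genes cannot be told apart. Values of some genes of the lists are not reported here.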

Additional observations from a re-analysis of the deposited data

Results flagged for a closer look

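Asic2 in MIA_Acu 1 was at 65.0 CPM, apart from the other MIA_Acu libraries at 44.6 to 46.2 CPM: the gap to the nearest was 0.921 of the group's whole range, above Dixon's critical value for 4 samples. Among 16 groups tested (4 genes, CPM and the value relative to the pan-neuronal list, 2 groups), this was the only 1 past it, and chance flags about 1 in 20.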

How the results depend on the processing

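In 8 libraries edgeR called 0 genes, of which 0 acid-related, also with DESeq2 size factors, a stricter filter, voom and without both MIA_Acu 2 and MIA_Acu 5 (added after seeing the data since their spinal cord scores were highest). It called 6 and 0 with no filter, 1963 and 15 in the 6 libraries, 207 and 1 with MIA 4 and MIA_Acu 3 exchanged, and 3732 and 9 under pan-neuronal scaling, which shifts the median of all genes to 0.35; DESeq2 called 1753 and 12. Leaving out 1 library gave 0 to 1340 and 0 to 10, the highest without MIA 4. The replicate block in the 6 libraries gave 1486 and 12. Deviations of same-numbered libraries correlated by 0.07, 0.27 and 0.15 (numbers 1, 2 and 5), and those of differently numbered libraries by -0.25 to 0.15. The highest of the latter was MIA 1 with MIA_Acu 5, above MIA 1 with its own number. Same-numbered libraries were not treated as pairs, and whether they are pairs is not known. The cause of the differences between the counts of genes called was not tested.

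The Asic3 log2 fold change stayed between -0.67 and -0.25 over all 18 alternatives, and was -0.65 to -0.53 with 1 library left out; Asic3 was chosen on this contrast and the alternatives reuse its values, so this range is a description. Asic2 was -0.48 to -0.0058. Asic1 turned to 0.11 under pan-neuronal scaling, and Asic4 to -0.022 without MIA_Acu 2 and MIA_Acu 5; without MIA_Acu 5 or MIA 4 alone and under the stricter filter Asic4 was not tested. Relative to the pan-neuronal list, values moved by more than the spread with the large-diameter list (Asic1 -0.12, Asic2 -0.24, Asic3 -0.48) and with the exchange (Asic3 -0.042); with 1 library left out they were 0.0072 to 0.18, -0.099 to 0.027 and -0.32 to -0.20. Between members, Asic1 minus Asic3 reversed to -0.78 with the longest transcript, by the construction of that scale, and was 0.11 in CPM, where Asic3 minus Asic2 was 0.012; with 1 library left out they were 0.28 to 0.36 and 0.92 to 1.03, and Asic2 minus Asic4 was 7.34 to 7.70. Depth limits Asic4, Asic5 and Stoml3.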
